A study of Arabidopsis thaliana with 18 samples.

Results

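Seedlings of Arabidopsis thaliana labelled as mutant for the histone chaperones AtChz1 (atchz1ab) were set against seedlings labelled as mutant for the histone H2A.Z genes HTA9 and HTA11 (hta9hta11), without the wild type as a further point. The comparison uses 6 of the 18 libraries of the study, 3 for each line, and takes every gene that passed a filter on low counts, 18173 of 33602. The atchz1ab line is given in the labels by that name alone, with no alleles, and hta9-1 and hta11-2 are the alleles of the hta9hta11 line. Both lines are in the ecotype Col-0, have no other mutation named, and were grown on MS medium for 14 days at 22 °C under a cycle of 16 h light and 8 h dark. RNA was taken from whole seedlings with no sorting of tissue. Each line is 1 genotype with no second allele, and the labels name neither the number of seedlings in a library nor whether replicates were grown apart, so that p-values measure only how far these samples spread, possibly for technical reasons. In whole seedlings, fewer cells of a type and less RNA per cell cannot be told apart. Col-0 and the line combining both sets of mutations appear below only as levels.

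H2A.Z is a variant of histone H2A that sits mainly in the nucleosomes beside gene starts and within the bodies of inducible genes. The SWR1 complex puts it there in exchange for H2A, and histone chaperones carry H2A.Z with H2B to that complex. In yeast, Chz1 is such a chaperone, and the AtChz1 proteins of Arabidopsis are named after it. HTA8, HTA9 and HTA11 encode the H2A.Z proteins of Arabidopsis, and plants without HTA9 and HTA11 keep HTA8. Plants that lack H2A.Z or its deposition are known for early flowering and for altered responses to phosphate, temperature and pathogens.

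The 6 libraries held between 8654576 and 8967422 counts in atchz1ab and between 7954113 and 9336338 in hta9hta11. The first component of a principal component analysis held 45.16% of the variance and separated the lines, with atchz1ab between -20.46 and -19.33 and hta9hta11 between 19.15 and 20.54. The second, with 14.54%, set hta9hta11 replicate 2 (-20.58) apart from replicates 1 (11.86) and 3 (9.154) of its line. Replicates were close, with a common biological coefficient of variation of 2.704%, so that small differences could be called.

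In all, 2144 genes (11.8% of those tested) differed between the lines by edgeR's quasi-likelihood test at a Benjamini-Hochberg adjusted p under 0.05. Of these, 1030 (5.67%) were higher and 1114 (6.13%) lower in atchz1ab. Most differences were small. The median absolute log2 fold change was 0.31 over the called genes and 0.11 over all genes tested, and 222 genes (1.22%) were called and differed at least 2-fold, 92 higher and 130 lower. The 3 libraries of one line lay wholly above or below the other 3 for 4809 genes (26.5% of those tested), which include 2029 of the called ones. When a coefficient of variation of 0.1 was assumed in place of the measured one, 586 genes were called, 248 higher and 338 lower, all of them among the 2144. DESeq2 called 1185 genes. Levels are given as CPM, counts relative to the size of each library after scaling between libraries by TMM, as mean ± SD with n = 3, log2 fold changes are atchz1ab over hta9hta11 with their standard errors, and adjusted p-values are those of edgeR over all genes tested. Levels of different genes are not comparable with each other, since CPM does not account for gene length.

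**Figure D1:**
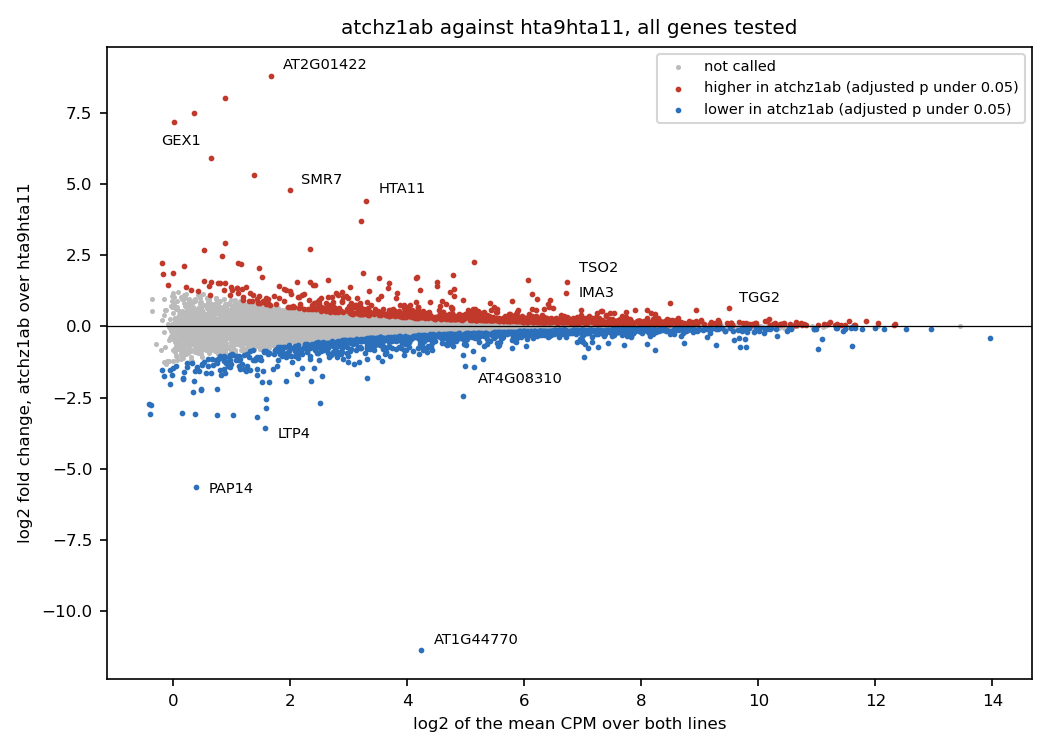
Log2 fold change of atchz1ab over hta9hta11 (vertical) against the log2 of the mean CPM of both lines (horizontal) for the 18173 genes tested, each a point, with the 1030 genes called higher in red and the 1114 called lower in blue. Most called genes lie close to 0, while AT1G44770 stands far below all others; the heights of genes with 0 counts in a line, AT1G44770, AT2G01422 and GEX1 among the labelled ones, depend on the prior count of the fit and are no measured folds.

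The mutated genes were read first. HTA11 (AT3G54560, chr3:20196140-20197726), an H2A.Z gene, had 17.81, 18.94 and 19.58 CPM in atchz1ab and 0.754, 0.3783 and 1.411 CPM in hta9hta11. The lines lay far apart, with a log2 fold change of 4.41 ± 0.217 (edgeR adjusted p = 5.08e-53). HTA9 (AT1G52740, chr1:19645236-19646485), the other H2A.Z gene mutated, had 100.2, 92.12 and 96.97 CPM in atchz1ab and 41.69, 45.02 and 43.97 CPM in hta9hta11, so that reads of the locus were still found in every library of the mutant (log2 fold change 1.15 ± 0.0571, edgeR adjusted p = 3.3e-52). Whether these reads come from a full transcript of hta9-1 cannot be read from a count per gene. HTA8 (AT2G38810), the H2A.Z gene that neither line mutates, averaged 6.943 ± 0.172 CPM in atchz1ab and 5.058 ± 0.231 CPM in hta9hta11. Its libraries did not overlap, but the difference was not called (log2 fold change 0.45 ± 0.19, edgeR adjusted p = 0.108). HTA4 (AT4G13570) had 0 counts in all 6 libraries.

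The loci mutated in atchz1ab are not named in the labels. RefSeq annotates AT4G08310 and AT1G44780 with the CHZ domain of histone chaperones, and both were read for that reason. AT4G08310 (chr4:5248806-5252327) had 18.92, 18.38 and 15.32 CPM in atchz1ab and 47.93, 45.27 and 45.59 CPM in hta9hta11. All atchz1ab libraries lay below all of hta9hta11 (log2 fold change -1.40 ± 0.0893, edgeR adjusted p = 7.81e-37). AT1G44780 (chr1:16909708-16912270) averaged 13.1 ± 1.19 CPM in atchz1ab and 12.76 ± 1.28 CPM in hta9hta11, and its libraries overlapped (log2 fold change 0.04 ± 0.129, edgeR adjusted p = 0.917). Its neighbour AT1G44770 (chr1:16907537-16909572) runs the other way, with 135 bases between their annotated starts. AT1G44770 had 0 counts in all 3 atchz1ab libraries and 36.62, 38.46 and 38.75 CPM in hta9hta11, where 1002 reads were counted. With a floor of 3 counts over the 3 libraries it was at least 337-fold lower in atchz1ab. In the line that combines the mutations it also stood at 0 CPM, against 36.8 CPM in Col-0. The sources used here do not give the sequence that the mutant carries between these genes. Within 250 kb of these loci the share of called genes was 10.1% around HTA9 (9 of 89 tested), 13.8% around HTA11 (15 of 109), 17.5% around AT1G44780 (7 of 40) and 11.1% around AT4G08310 (3 of 27), against 11.8% over all genes.

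Of 20 tested members of a list of H2A.Z genes and exchange machinery, 4 were higher and 2 lower in atchz1ab, against 5.67% and 6.13% of all genes tested, and 2 of the higher ones are the mutated HTA9 and HTA11. The other 4 differed by less than 0.30 on the log2 scale. With a coefficient of variation of 0.1, HTA9 and HTA11 alone were called. SWC4 (AT2G47210), one of the other 4, lost its call in 7 of the 15 alternatives. PIE1 (AT3G12810), the ATPase of SWR1, averaged 61.99 ± 5.8 CPM in atchz1ab and 75.46 ± 3.58 CPM in hta9hta11 (log2 fold change -0.28 ± 0.0565, edgeR adjusted p = 2.71e-05), a call lost when a coefficient of variation of 0.1 was assumed (edgeR adjusted p = 0.314). It overlaps AT3G12820 on the opposite strand by 340 bases. NRP1 (AT1G74560), a chaperone of H2A and H2B, averaged 89.58 ± 3.47 CPM in atchz1ab and 75.93 ± 0.995 CPM in hta9hta11 (log2 fold change 0.24 ± 0.0508, edgeR adjusted p = 0.000121). ARP6 (AT3G33520) and SWC2 (AT2G36740), both SWR1 subunits, were not called, at 26.41 ± 1.15 and 16.59 ± 2.24 CPM in atchz1ab and 28.01 ± 2.71 and 16 ± 1.49 CPM in hta9hta11. Among the 9 genes of other H2A proteins, which replication and DNA repair draw on, 4 were higher in atchz1ab and 0 lower, with a median log2 fold change of 0.22 against 0.00 over all genes tested. HTA2 (AT4G27230) stood at 33.86 ± 4.84 CPM in atchz1ab and 25.07 ± 2.11 CPM in hta9hta11 (log2 fold change 0.43 ± 0.0898, edgeR adjusted p = 7e-05). HTA10 (AT1G51060) lost its call without hta9hta11 replicate 1 (log2 fold change 0.20, edgeR adjusted p = 0.0608), and with a coefficient of variation of 0.1 none of the 4 was called.

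Several of the genes farthest apart had no read in one of the lines. AT2G01422, a non-coding RNA by its annotation (chr2:183940-184734), had 169 counts over the atchz1ab libraries and 0 over those of hta9hta11, at least 55.9-fold higher. AT1G63950, annotated as a heavy metal transport protein (chr1:23734848-23735745), had 99 counts in atchz1ab and 0 in hta9hta11, at least 32.7-fold higher. Both stood at about 0.04 CPM in Col-0 (0.0413 and 0.0417 CPM) and at 0 CPM in the combined line, so that reads were found at a level of more than 1 CPM in atchz1ab alone among these 4 lines. AT5G42280, a gene of the C1 domain family (chr5:16905202-16908059), had 68 counts in atchz1ab and 0 in hta9hta11, at least 22.5-fold higher. It stood at 0 CPM in the combined line and at 2.66 CPM in Col-0. The non-coding RNA AT4G04223 (chr4:2036511-2037816) had 15.47, 16.04 and 19.92 CPM in atchz1ab and 0.6463, 1.766 and 1.52 CPM in hta9hta11 (log2 fold change 3.72 ± 0.206, edgeR adjusted p = 2.93e-45). It stood at 0.896 ± 0.0136 CPM in the combined line and at 4.02 CPM in Col-0.

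AT4G22960, AT5G07610, SMR7 and GEX1, all among the 10 largest rises, also stood above Col-0 in the combined line. GEX1 stood at 1.11 CPM there and at 0.0417 CPM in Col-0, and SMR7 is described below. AT4G22960 (chr4:12030020-12033380), annotated as a FAM63A-like protein, had 136 counts in atchz1ab and 3 in hta9hta11, a ratio of 45 (95% counting interval 15.1 to 221). It stood at 3.61 CPM in the combined line and 0.299 CPM in Col-0. The F-box gene AT5G07610 (chr5:2406068-2407330) had 83 counts in atchz1ab and 1 in hta9hta11, a ratio of 82.3 (14.4 to 3290), with 2.44 CPM in the combined line and 0.0766 CPM in Col-0. AT2G18193 (chr2:7917413-7919345), annotated as a P-loop nucleoside triphosphate hydrolase, was among the 5 smallest p-values of higher genes, with 105.9, 96.02 and 101.1 CPM in atchz1ab and 34.47, 33.54 and 30.94 CPM in hta9hta11 (log2 fold change 1.62 ± 0.0604, edgeR adjusted p = 1.13e-73). It stood at 46.6 CPM in the combined line and 31 CPM in Col-0.

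Further genes named for the size or the p of their difference belong to no list. ORG1 (AT5G53450, chr5:21688763-21692480), named for its response to the transcription factor OBP3, had 470.2, 451.4 and 458.6 CPM in atchz1ab and 259.9, 260.4 and 265 CPM in hta9hta11 (log2 fold change 0.81 ± 0.0261, edgeR adjusted p = 6.31e-87). The non-coding RNA AT1G67105 averaged 3.298 ± 0.808 CPM in atchz1ab and 0.4148 ± 0.114 CPM in hta9hta11 (log2 fold change 2.95 ± 0.425). Among the lower genes, AT1G70080, of the terpenoid cyclase family, averaged 0.3354 ± 0.293 CPM in atchz1ab and 3.052 ± 0.533 CPM in hta9hta11 (-3.12 ± 0.457). The libraries of the lines did not overlap for these genes, nor for the next 3. AT5G07760, with a formin domain, averaged 0.2624 ± 0.169 CPM in atchz1ab and 2.325 ± 0.435 CPM in hta9hta11 (-3.07 ± 0.517), and AT5G47590, of the HSP20 family, 0.7115 ± 0.354 CPM in atchz1ab and 5.318 ± 0.754 CPM in hta9hta11 (-2.88 ± 0.332). PAP24 (AT4G24890), a purple acid phosphatase, averaged 0.1484 ± 0.17 CPM in atchz1ab and 1.382 ± 0.333 CPM in hta9hta11 (-3.07 ± 0.675), and it overlaps AT4G24880 on the opposite strand.

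Calls among DNA damage response genes all went up in atchz1ab. In plants, the kinases ATM and ATR sense broken or stalled DNA and activate the transcription factor SOG1, which switches on genes of repair, of deoxynucleotide supply and of cell cycle arrest. Of 26 tested members of this list, 13 were higher and 0 lower, against 5.67% and 6.13% of all genes tested, and the median log2 fold change was 0.42, also with GEX1 set to its bound. With a coefficient of variation of 0.1, 11 of the 13 were still called. The library sums of the list ran from 667.4 to 682.5 CPM in atchz1ab and from 419.7 to 436 CPM in hta9hta11.

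SMR7 (AT3G27630, chr3:10230892-10231567), an inhibitor of cyclin-dependent kinases, had 9.461, 7.241 and 6.565 CPM in atchz1ab and 0.2154, 0.5044 and 0.1086 CPM in hta9hta11. Every atchz1ab library lay above 6 CPM and every hta9hta11 library close to 0 (log2 fold change 4.80 ± 0.365, edgeR adjusted p = 2.87e-28). The gene TSO2 (AT3G27060, chr3:9979841-9981620), a small subunit of ribonucleotide reductase, had 159.7, 158.2 and 157.5 CPM in atchz1ab and 58.06, 51.7 and 51.46 CPM in hta9hta11. The lines lay apart by many times the spread within each (log2 fold change 1.56 ± 0.0481, edgeR adjusted p = 2.71e-90). GMI1 (AT5G24280), which acts in recombination repair of strand breaks, had 41.18, 40.55 and 47.33 CPM in atchz1ab and 13.03, 11.22 and 12.27 CPM in hta9hta11 (log2 fold change 1.81 ± 0.0984, edgeR adjusted p = 1.79e-46). PARP2 (AT4G02390), which adds ADP-ribose chains at strand breaks, had 25.93, 30.75 and 26.14 CPM in atchz1ab and 7.971, 8.575 and 8.576 CPM in hta9hta11 (log2 fold change 1.72 ± 0.118, edgeR adjusted p = 4.2e-33). The lines did not overlap for either gene. GEX1 (AT5G55490), known from gametes, had 1.67, 2.562 and 1.843 CPM in atchz1ab and 0 counts in hta9hta11, at least 17.9-fold higher.

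**Figure D2:**
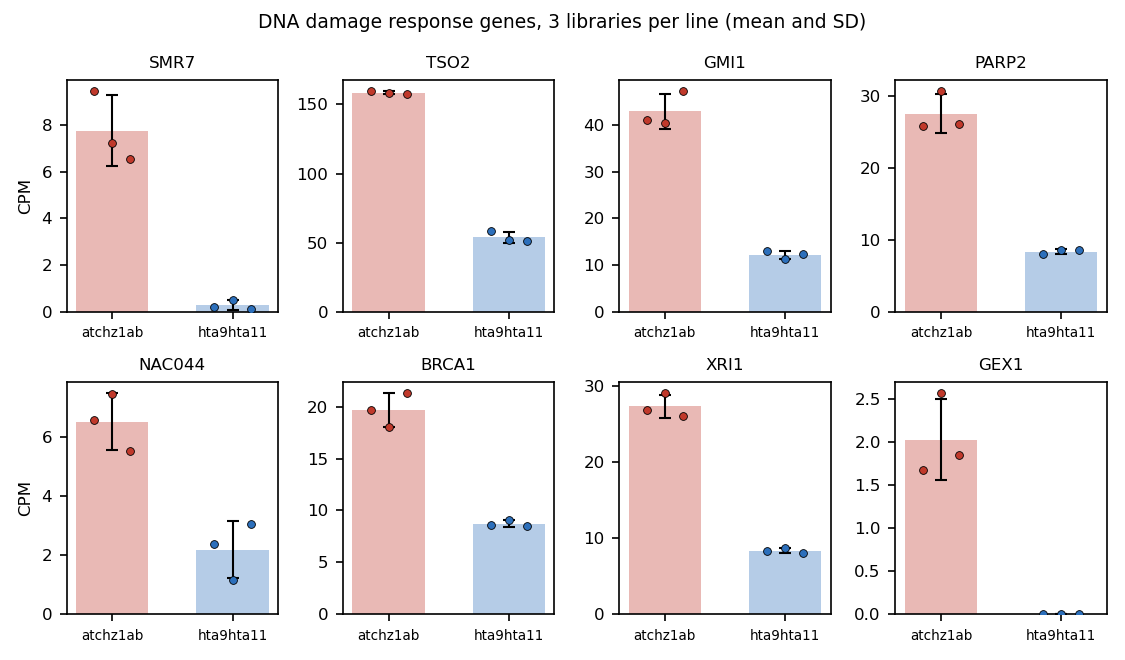
CPM of 8 DNA damage response genes in each library (points), with the mean (bar) and SD (error bar) of 3 libraries per line, atchz1ab in red and hta9hta11 in blue. In all 8 panels the 3 atchz1ab libraries lie above the 3 hta9hta11 libraries, for TSO2 at 157.5 to 159.7 CPM against 51.46 to 58.06 CPM.

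Other genes of repair and cell cycle arrest were higher too. BRCA1 (AT4G21070), of recombination repair, averaged 19.68 ± 1.63 CPM in atchz1ab and 8.721 ± 0.319 CPM in hta9hta11. XRI1 (AT5G48720), induced by X-rays, averaged 27.35 ± 1.53 CPM in atchz1ab and 8.343 ± 0.337 CPM in hta9hta11 (log2 fold change 1.71 ± 0.118, edgeR adjusted p = 6.73e-33). NAC044 (AT3G01600), a transcription factor that relays SOG1 to cell cycle arrest, averaged 6.52 ± 0.969 CPM in atchz1ab and 2.181 ± 0.966 CPM in hta9hta11. CYCB1;1 (AT4G37490), a B-type cyclin that also acts in repair, averaged 8.555 ± 0.732 CPM in atchz1ab and 4.716 ± 1.1 CPM in hta9hta11 (log2 fold change 0.87 ± 0.184, edgeR adjusted p = 9.81e-05). Further called members were AGO2, PARP1 and RNR1, with log2 fold changes of 0.62, 0.45 and 0.22. The sensors and the central regulator were not called. SOG1 (AT1G25580) averaged 13.52 ± 2.33 CPM in atchz1ab and 13.99 ± 0.741 CPM in hta9hta11, and ATM (AT3G48190) 57.27 ± 3.09 CPM in atchz1ab and 61.39 ± 0.788 CPM in hta9hta11 (edgeR adjusted p = 0.879 and 0.336). KU70 (AT1G16970) and KU80 (AT1G48050), of end joining, differed by 0.03 and 0.09 on the log2 scale and were not called.

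Further members had too few reads to test. SMR5 (AT1G07500), another kinase inhibitor of the SMR7 family, had 36 counts in atchz1ab and 1 in hta9hta11, NAC085 (AT5G14490) 23 counts in atchz1ab and 0 in hta9hta11, and SMR4 (AT5G02220) 13 counts in atchz1ab and 7 in hta9hta11. Calls among genes of the cell cycle itself went both ways. Of 22 tested members of DNA replication and the cell cycle, 2 were higher, 2 lower and 18 not called. Over all genes tested, 5.67% were higher and 6.13% lower, so that this list was not called less often than all genes. All 4 of its calls were lost under DESeq2. CDKB1;1 (AT3G54180), a mitotic kinase, averaged 6.834 ± 0.289 CPM in atchz1ab and 4.668 ± 0.5 CPM in hta9hta11 (edgeR adjusted p = 0.0453), and MCM2 (AT1G44900), of the replication helicase, 22.78 ± 3.46 CPM in atchz1ab and 28.44 ± 0.556 CPM in hta9hta11 (edgeR adjusted p = 0.0101). CDKB1;1 lost its call without any of the 6 libraries in turn, and MCM2 without atchz1ab replicate 1 (edgeR adjusted p = 0.21).

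SOG1 is known to bind a palindrome of CTT and AAG with 7 free bases between them, which reads the same on both strands. The sequences of 3 genes called higher that hold it in the 200 bases before their annotated start are shown as examples of a match. They were read from the TAIR10.1 genome with RefSeq starts, 5′ to 3′ on the strand of the gene, with the match in capitals. SMR7 is taken from chr3:10231568-10231767 (minus strand), PARP2 from chr4:1049566-1049765 (plus) and NAC044 from chr3:228875-229074 (plus).
SMR7: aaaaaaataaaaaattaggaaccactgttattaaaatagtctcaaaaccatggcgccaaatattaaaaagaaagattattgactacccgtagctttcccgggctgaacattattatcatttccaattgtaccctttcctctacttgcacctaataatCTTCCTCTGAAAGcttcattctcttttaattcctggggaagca
PARP2: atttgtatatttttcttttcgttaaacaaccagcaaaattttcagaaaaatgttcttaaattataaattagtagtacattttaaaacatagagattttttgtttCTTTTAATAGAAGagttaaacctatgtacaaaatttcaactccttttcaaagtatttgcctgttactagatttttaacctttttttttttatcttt
NAC044: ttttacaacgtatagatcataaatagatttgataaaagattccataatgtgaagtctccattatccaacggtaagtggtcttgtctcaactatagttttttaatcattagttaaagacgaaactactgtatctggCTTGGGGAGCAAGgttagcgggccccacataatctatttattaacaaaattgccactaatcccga
The match begins at position -43 in SMR7, -96 in PARP2 and -65 in NAC044, counted back from the start. It was found in 7 of the 29 members of the list and in 4 of the 13 called higher, against 7.74% of the 37897 promoters of the annotation and 7% of those of tested genes. RAD54 (AT3G19210) holds it at -21 and was not called, at 5.082 ± 1.19 CPM in atchz1ab and 4.523 ± 0.343 CPM in hta9hta11. A match describes letters in this window and is no evidence of binding, and the 9 higher members without one were not searched farther upstream.

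Iron deficiency genes formed the list with the highest median. Plants short of iron raise a group of related bHLH transcription factors and the IRON MAN (IMA) peptides, which together raise uptake and transport, and they lower ferritins, which store iron in plastids. Of 16 tested members, 12 were higher and 2 lower in atchz1ab, against 5.67% and 6.13% of all genes tested, with a median log2 fold change of 0.60. With a coefficient of variation of 0.1 the same list gave 12 higher and 1 lower. BHLH39 (AT3G56980) had 8.348, 7.686 and 7.486 CPM in atchz1ab and 1.723, 3.657 and 3.257 CPM in hta9hta11 (log2 fold change 1.46 ± 0.215, edgeR adjusted p = 4.47e-09). BHLH100 (AT2G41240) had 16.92, 19.72 and 18.31 CPM in atchz1ab and 5.817, 8.323 and 7.273 CPM in hta9hta11 (log2 fold change 1.37 ± 0.137, edgeR adjusted p = 7.73e-18). For both genes the lowest atchz1ab library stood above the highest of hta9hta11. BHLH38 (AT3G56970) and BHLH101 (AT5G04150), the other members of that bHLH group, were also called higher, by 1.04 and 0.62 on the log2 scale.

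The peptide gene IMA1 (AT1G47400) had 37.06, 37.09 and 38.12 CPM in atchz1ab and 15.51, 15.64 and 16.72 CPM in hta9hta11 (log2 fold change 1.23 ± 0.095, edgeR adjusted p = 1.86e-27). IMA3 (AT2G30766) averaged 145.2 ± 3.95 CPM in atchz1ab and 64.84 ± 4.24 CPM in hta9hta11 (log2 fold change 1.17 ± 0.0473, edgeR adjusted p = 2.67e-67). It overlaps AT2G30760 and AT2G30770 on the opposite strand by 639 and 572 bases, and the sources used here do not say whether counting used the strand. Further members of the iron list were higher too. The phloem transporter OPT3 (AT4G16370) averaged 250.1 ± 7.59 CPM in atchz1ab and 177.8 ± 2.47 CPM in hta9hta11 (log2 fold change 0.49 ± 0.0329), and BTS (AT3G18290), a ubiquitin ligase that limits the response, 326.4 ± 10.7 CPM in atchz1ab and 220.7 ± 11 CPM in hta9hta11 (0.56 ± 0.0298). FRO3, NAS4 and PYE were higher by 0.58, 0.67 and 0.50. The ferritin gene FER1 (AT5G01600) went the other way, with 81.92, 86.22 and 83.61 CPM in atchz1ab and 173.2, 174.4 and 177.3 CPM in hta9hta11 (log2 fold change -1.06 ± 0.0424, edgeR adjusted p = 2.64e-68). FER4 (AT2G40300) was lower by a log2 fold change of -0.43 and FER3 (AT3G56090) was not called (edgeR adjusted p = 0.295). The root uptake genes IRT1, FRO2, MYB72 and CYP82C4 had too few reads to test, with at most 21 counts over a line, and FIT (AT2G28160), their activator, averaged 1.276 ± 0.278 CPM in atchz1ab and 1.94 ± 0.481 CPM in hta9hta11 without a call.

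The jasmonate list held more higher than lower calls. Jasmonate is the wound hormone that plants make from fatty acids of the chloroplast through LOX2, AOS and the AOC enzymes, and its signal frees the factor MYC2 from JAZ repressors. Of 20 tested members, 10 were higher, 1 was lower and 9 were not called, against 5.67% and 6.13% of all genes tested higher and lower, with a median log2 fold change of 0.36 against 0.00. With a coefficient of variation of 0.1, 6 higher calls remained. LOX2 (AT3G45140, chr3:16525245-16529352) had 582.9, 576.8 and 595.9 CPM in atchz1ab and 383.8, 395.9 and 397.8 CPM in hta9hta11 (log2 fold change 0.58 ± 0.0228, edgeR adjusted p = 3.67e-69). AOS (AT5G42650) had 152.4, 151.1 and 145.9 CPM in atchz1ab and 106, 94.83 and 100.8 CPM in hta9hta11 (log2 fold change 0.57 ± 0.0426, edgeR adjusted p = 3.55e-29). The gene AOC2 (AT3G25770) averaged 282.8 ± 2.74 CPM in atchz1ab and 191.5 ± 3.25 CPM in hta9hta11 (log2 fold change 0.56 ± 0.0313), and its near copy AOC1 (AT3G25760) was higher by 0.56 ± 0.11, although reads may be split between them. The 3 enzyme genes thus differed by a similar factor, each with no overlap between lines.

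Downstream, MYC2 (AT1G32640) averaged 83.09 ± 3.93 CPM in atchz1ab and 64.14 ± 2.7 CPM in hta9hta11 (log2 fold change 0.37 ± 0.0541), and the storage protein gene VSP2 (AT5G24770) 188.3 ± 0.943 CPM in atchz1ab and 128.9 ± 4.42 CPM in hta9hta11 (0.55 ± 0.0378). LOX3 (AT1G17420), a related lipoxygenase, was the member called lower, at 23.78 ± 1.59 CPM in atchz1ab and 28.7 ± 0.609 CPM in hta9hta11 (log2 fold change -0.27 ± 0.0925, edgeR adjusted p = 0.0362), a call that 8 of the 15 alternatives did not make. Of 19 rapid stress and touch genes, 10 were higher, 0 lower and 9 not called, against 5.67% and 6.13% of all genes tested, with a median of 0.35. ZAT12 (AT5G59820), a zinc finger factor of oxidative stress, had 16.03, 15.6 and 16.35 CPM in atchz1ab and 8.509, 7.693 and 6.622 CPM in hta9hta11 (log2 fold change 1.07 ± 0.139, edgeR adjusted p = 2.31e-11). WRKY40 (AT1G80840), of early defence, averaged 11.37 ± 0.969 CPM in atchz1ab and 6.655 ± 0.0887 CPM in hta9hta11 (log2 fold change 0.77 ± 0.155), and WRKY33 (AT2G38470) 52.01 ± 2.14 CPM in atchz1ab and 34.52 ± 1.67 CPM in hta9hta11 (0.59 ± 0.0735).

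Glucosinolates are sulfur compounds of Brassicaceae that myrosinases cut when tissue is damaged. Of 32 members, 9 were higher, 1 was lower and 22 were not called, against 5.67% and 6.13% of all genes tested higher and lower, with a median of 0.10, and with a coefficient of variation of 0.1 only the myrosinase gene TGG2 was called. TGG2 (AT5G25980, chr5:9072708-9075777) had 874.3, 897.1 and 872.2 CPM in atchz1ab and 567.7, 577.1 and 539.5 CPM in hta9hta11 (log2 fold change 0.65 ± 0.0198, edgeR adjusted p = 7.02e-92). The gap between the lines was more than 10 times the spread within either. The related TGG1 (AT5G26000) averaged 2591 ± 22.3 CPM in atchz1ab and 2485 ± 18.1 CPM in hta9hta11 (log2 fold change 0.06 ± 0.0126). ESM1 (AT3G14210), which shifts breakdown towards isothiocyanates, averaged 380.3 ± 9.83 CPM in atchz1ab and 316.1 ± 5.17 CPM in hta9hta11 (log2 fold change 0.27 ± 0.0262), and NSP5 (AT5G48180), a nitrile specifier, 145.5 ± 5.7 CPM in atchz1ab and 183.7 ± 6.49 CPM in hta9hta11 (-0.34 ± 0.0372).

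**Figure D3:**
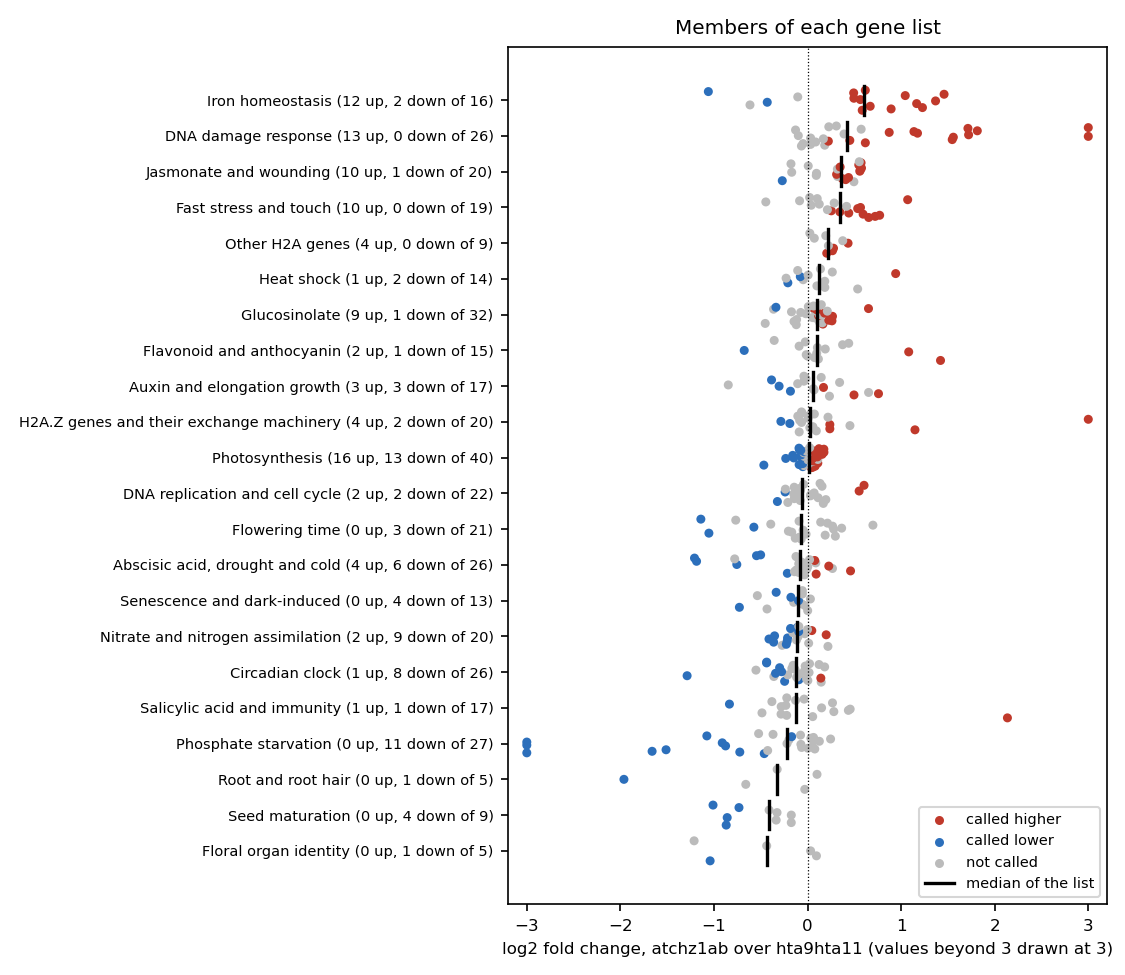
Log2 fold change of atchz1ab over hta9hta11 (horizontal) for each tested member of the 22 gene lists (points, red called higher, blue called lower, grey not called), with the list median as a black bar and lists ordered by it. Iron homeostasis has the highest median at 0.60 and DNA damage response follows at 0.42, while phosphate starvation, with 11 of 27 members called lower, holds points drawn at the edge of the axis.

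Calls among phosphate starvation genes all went down in atchz1ab. Plants short of phosphate secrete acid phosphatases, replace phospholipids by galactolipids and sulfolipids, and make the non-coding RNAs IPS1 and At4, which hold back a microRNA. The factor PHR1 is known to switch on these genes. Of 27 tested members, 11 were lower and 0 higher, against 6.13% and 5.67% of all genes tested, and the median was -0.22. The median was -0.49 without atchz1ab replicate 1 and -0.36 without hta9hta11 replicate 2. It was weaker, at -0.17 with 10 lower calls, without hta9hta11 replicate 3. With a coefficient of variation of 0.1, 9 were still called. PAP14 (AT2G46880, chr2:19264573-19266456), a purple acid phosphatase, had 1 count over the atchz1ab libraries and 68 over those of hta9hta11, a ratio of 68.6 (95% counting interval 11.9 to 2750). PEPC1 (AT1G17710), a phosphatase of phospholipid headgroups, had 0.6678, 0.1114 and 0.4607 CPM in atchz1ab and 4.201, 2.396 and 4.342 CPM in hta9hta11 (log2 fold change -3.12 ± 0.415, edgeR adjusted p = 7.75e-11). IPS1 (AT3G09922) had 0.2226, 0.3342 and 0.1152 CPM in atchz1ab and 1.939, 2.522 and 1.52 CPM in hta9hta11 (log2 fold change -3.05 ± 0.558, edgeR adjusted p = 3.9e-06). The lines lay apart for each of these, at low levels in both.

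Lipid and transport genes of the same response were lower in part. MGD3 (AT2G11810), a galactolipid synthase, averaged 1.687 ± 0.164 CPM in atchz1ab and 4.834 ± 0.388 CPM in hta9hta11 (log2 fold change -1.51 ± 0.277). PS2 (AT1G73010), a phosphatase, averaged 2.103 ± 0.507 CPM in atchz1ab and 6.638 ± 1.08 CPM in hta9hta11 (-1.66 ± 0.241). PHT1;4 (AT2G38940), a phosphate transporter, averaged 3.457 ± 0.491 CPM in atchz1ab and 6.332 ± 0.649 CPM in hta9hta11 (-0.88 ± 0.215, edgeR adjusted p = 0.00124). SQD2 (AT5G01220), of sulfolipid synthesis, differed by -0.17 ± 0.043. Others of these kinds were not called, namely MGD2 (-0.37), NPC4 (-0.22), PHT1;1 (-0.52), PHO1 (0.07), SQD1 (0.06) and PHF1 (0.25, all log2 fold changes). The regulators PHR1 (AT4G28610) and PHO2 (AT2G33770) were not called, at 53.26 ± 2.96 and 142.2 ± 8.19 CPM in atchz1ab and 51.8 ± 3.56 and 137.1 ± 1.79 CPM in hta9hta11. SPX1 (AT5G20150), a phosphate sensor that is itself induced by starvation, averaged 39.56 ± 1.66 CPM in atchz1ab and 41.68 ± 0.66 CPM in hta9hta11 and was not called either. SPX3 (AT2G45130) was too low to test, with 2 counts in atchz1ab and 29 in hta9hta11. In Col-0, PS2 stood at 12 CPM, PEPC1 at 6.42 CPM and IPS1 at 3.36 CPM on the scale of all 18 libraries, above both mutants.

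PHR1 binds the palindrome GNATATNC, which was searched on both strands. The windows of PAP14 (chr2:19266457-19266656, minus strand), At4 (gene AT5G03545, named AT4 here, chr5:894382-894581, plus) and PLDP2 (AT3G05630, chr3:1634994-1635193, plus) are shown because these 3 of the 11 lower genes hold it, with the match in capitals and the build and strand rule as above.
PAP14: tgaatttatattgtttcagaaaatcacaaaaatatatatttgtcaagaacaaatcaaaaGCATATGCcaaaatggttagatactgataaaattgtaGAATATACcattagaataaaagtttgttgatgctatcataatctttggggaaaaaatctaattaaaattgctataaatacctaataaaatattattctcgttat
AT4: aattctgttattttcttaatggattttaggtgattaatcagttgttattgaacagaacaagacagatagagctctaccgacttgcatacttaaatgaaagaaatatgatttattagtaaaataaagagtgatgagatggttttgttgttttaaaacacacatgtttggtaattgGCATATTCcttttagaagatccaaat
PLDP2: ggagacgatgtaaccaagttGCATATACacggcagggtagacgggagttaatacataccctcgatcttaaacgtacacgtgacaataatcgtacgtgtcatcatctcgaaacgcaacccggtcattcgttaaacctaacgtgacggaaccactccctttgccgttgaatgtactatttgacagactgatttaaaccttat
PAP14 holds the motif at -141 and -104, AT4 at -26 and PLDP2 at -180. Of the 29 members, 6 hold a match, against 4.2% of all promoters and 4.28% of those of tested genes. GDPD1 (AT3G02040) holds it at -127 and -63 and was not called, at 29.74 ± 2.24 CPM in atchz1ab and 31.19 ± 1.83 CPM in hta9hta11. For 3 further lists, the motif was found in 6 of 23 heat shock promoters (GAANNTTC, 7.56% of all promoters and 7.32% of those of tested genes), in 8 of 28 promoters of abscisic acid, drought and cold (ACGTGNC, 6.35% and 8.67%) and in 4 of 25 jasmonate promoters (CACGTG, 4.62% and 6.59%), both strands being read. ACGTGNC and CACGTG can overlap each other. The letters alone say nothing of the factor's binding.

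**Figure D4:**
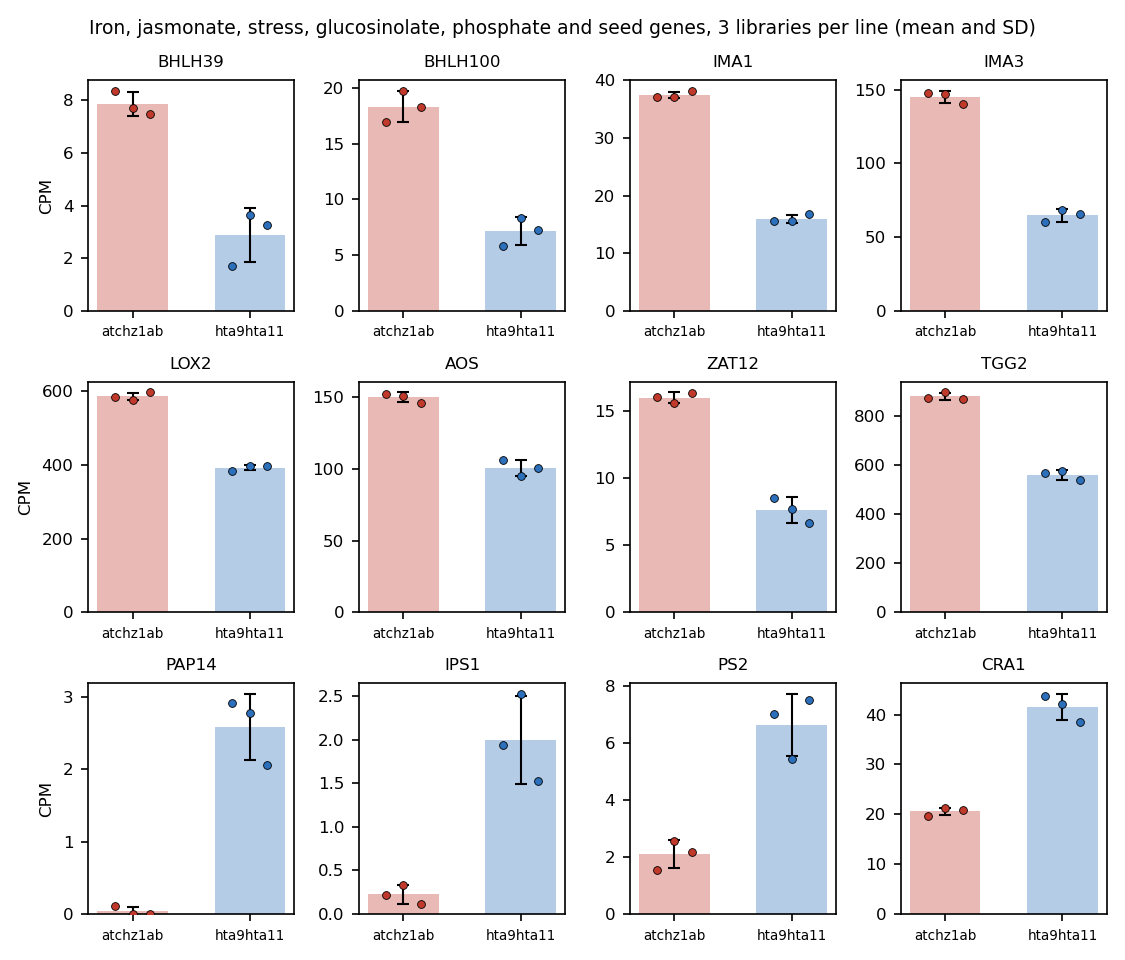
CPM of 12 genes of iron homeostasis (BHLH39, BHLH100, IMA1, IMA3), jasmonate and stress (LOX2, AOS, ZAT12), myrosinase (TGG2), phosphate starvation (PAP14, IPS1, PS2) and seed storage (CRA1) in each library (points), with the mean (bar) and SD (error bar) of 3 libraries per line. The first 8 panels are higher in atchz1ab and the last 4 lower, and in none do the libraries of the lines overlap.

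Drought and cold genes split. Of 26 tested genes of drought, cold and abscisic acid, 4 were higher and 6 lower in atchz1ab, against 5.67% and 6.13% of all genes tested, with a median of -0.08. RD29B (AT5G52300), a strict target of abscisic acid, had 6.678, 9.246 and 5.528 CPM in atchz1ab and 17.77, 16.14 and 15.74 CPM in hta9hta11 (log2 fold change -1.21 ± 0.141, edgeR adjusted p = 1.1e-13). The dehydrin gene LTI30 (AT3G50970) averaged 13.51 ± 0.349 CPM in atchz1ab and 22.84 ± 1.37 CPM in hta9hta11 (-0.76 ± 0.11), and RAB18 (AT5G66400), another dehydrin gene, 104.4 ± 4.01 CPM in atchz1ab and 147.8 ± 2.05 CPM in hta9hta11 (-0.50 ± 0.0422). ERD14 (AT1G76180), also a dehydrin gene, went the other way, at 333.2 ± 3.3 CPM in atchz1ab and 242.1 ± 6.58 CPM in hta9hta11 (0.46 ± 0.0286, edgeR adjusted p = 3.32e-38). LTP4 (AT5G59310), a lipid transfer protein gene, is not a member of this list and is named as among the 10 largest falls of all genes. It had 0.5565, 0.4456 and 0.3455 CPM in atchz1ab and 6.571, 5.423 and 4.451 CPM in hta9hta11 (log2 fold change -3.57 ± 0.363, edgeR adjusted p = 2.14e-17). KIN1 (AT5G15960) was lower by a log2 fold change of -1.19 ± 0.203 and its neighbour and near copy KIN2 (AT5G15970) higher by 0.08 ± 0.0277 (edgeR adjusted p = 0.0497), with reads that may be split between them.

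Of 20 members of nitrate uptake and nitrogen assimilation, 9 were lower, 2 higher and 9 not called, against 6.13% and 5.67% of all genes tested lower and higher, with a median of -0.11, and 1 lower call was left with a coefficient of variation of 0.1. NIA1 (AT1G77760), a nitrate reductase, had 488, 495.2 and 475.6 CPM in atchz1ab and 633, 614.7 and 627 CPM in hta9hta11 (log2 fold change -0.36 ± 0.0215, edgeR adjusted p = 7.81e-41). NIA2 (AT1G37130) and the nitrite reductase gene NIR1 (AT2G15620) followed, with log2 fold changes of -0.23 ± 0.0166 and -0.22 ± 0.024. Of 26 clock genes, 8 were lower, 1 was higher and 17 were not called, against 6.13% and 5.67% of all genes tested lower and higher. The median of the clock list was -0.13, and 2 lower calls were left with a coefficient of variation of 0.1. The called clock members with the largest differences were RVE8 (AT3G09600), CDF1 (AT5G62430), LNK1 (AT5G64170) and LNK2 (AT3G54500), all lower in atchz1ab. Their log2 fold changes were -1.29, -0.44, -0.44 and -0.34. RVE8 lost its call in 7 of the 15 alternatives and CDF1 in 5. The afternoon and evening genes PRR7 (AT5G02810), PRR5 (AT5G24470) and GI (AT1G22770) averaged 151.3 ± 4.25, 78.67 ± 2.94 and 164.2 ± 1.61 CPM in atchz1ab and 183.4 ± 0.16, 96.73 ± 3.76 and 194.8 ± 9.73 CPM in hta9hta11. The core genes TOC1 (AT5G61380) and LHY (AT1G01060) were not called (edgeR adjusted p = 0.722 and 0.857). The hour of harvest is not given in the labels.

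Of 21 flowering genes tested, 3 were lower in atchz1ab and 0 higher, which makes 14.3% called, near the 11.8% of all genes. Each of the 3 was also called with a coefficient of variation of 0.1. MAF5 (AT5G65080), a relative of the repressor FLC, had 2.671, 3.899 and 2.994 CPM in atchz1ab and 9.587, 5.17 and 6.188 CPM in hta9hta11 (log2 fold change -1.14 ± 0.216, edgeR adjusted p = 9.8e-06). SPL3 (AT2G33810), a promoter of flowering, had 5.12, 6.461 and 3.916 CPM in atchz1ab and 9.91, 11.73 and 10.75 CPM in hta9hta11 (log2 fold change -1.05 ± 0.169, edgeR adjusted p = 9.1e-08). It overlaps AT2G33815 on the opposite strand over 1046 bases. The sources used here do not say whether counting used the strand, so that reads of the antisense gene may be counted for SPL3. AGL24 (AT4G24540), a flowering activator, averaged 8.562 ± 0.578 CPM in atchz1ab and 12.64 ± 3 CPM in hta9hta11 (-0.57 ± 0.145), a call lost without hta9hta11 replicate 3 (-0.40, edgeR adjusted p = 0.117). FLC (AT5G10140) averaged 3.168 ± 1.3 CPM in atchz1ab and 1.982 ± 0.906 CPM in hta9hta11, and FT (AT1G65480) 2.846 ± 0.483 CPM in atchz1ab and 3.028 ± 0.228 CPM in hta9hta11, neither of them called (edgeR adjusted p = 0.131 and 0.904). The floral gene SEP3 (AT1G24260) averaged 2.516 ± 0.568 CPM in atchz1ab and 5.207 ± 0.579 CPM in hta9hta11 (log2 fold change -1.04 ± 0.247, edgeR adjusted p = 0.000741).

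Chloroplast and mitochondrial transcripts took a smaller share of the reads in atchz1ab. Organelle genes held 1.5888, 1.6009 and 1.602% of counts in atchz1ab and 2.1224, 2.0806 and 2.097% in hta9hta11. The difference of -0.503 percentage points is many times the spread within a line, and a 2-sided exact permutation test gave p = 0.1, the smallest that 3 against 3 samples allow. Of 85 tested chloroplast genes, 44 were lower and 7 higher (median log2 fold change -0.43), and of 22 mitochondrial genes 7 were lower and 0 higher (median -0.37). Over all genes tested, 6.13% were lower and 5.67% higher. ATCG00490 had 2392, 2350 and 2351 CPM in atchz1ab and 3856, 3792 and 3800 CPM in hta9hta11 (log2 fold change -0.69 ± 0.012, edgeR adjusted p = 1.6e-146). ATCG00020, ATCG00340 and ATCG00350 averaged 1524 ± 24.8, 662.4 ± 8.58 and 621.6 ± 27.5 CPM in atchz1ab and 2613 ± 11.9, 1104 ± 4.38 and 1037 ± 7.95 CPM in hta9hta11. Of 4 tested nuclear ribosomal RNA genes 2 were lower and 1 higher, with log2 fold changes from -1.80 to 0.23. The most abundant, the 18S gene AT3G41768, stood at 13840, 13550 and 13560 CPM in atchz1ab and 18210, 17830 and 18450 CPM in hta9hta11 (-0.41 ± 0.00846, edgeR adjusted p = 8.73e-130). These RNAs mostly lack long poly(A) tails, and the libraries were made with an mRNA kit. The combined line stood at 1.7223 to 1.7312% and Col-0 at 2.1168 to 2.1358%. With organelle and ribosomal RNA genes left out of the fit, 2093 genes were called, and the 97 genes named by rule that stayed in the fit kept their calls. The drought and cold list then held 3 higher calls and the glucosinolate list 2 lower ones.

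Nuclear photosynthesis genes differed often but little. Of 40, 16 were higher and 13 lower, against 5.67% and 6.13% of all genes tested, with a median of 0.02, a range from -0.47 to 0.18 and 1 call left with a coefficient of variation of 0.1. That gene, LHCB1.1 (AT1G29920), a chlorophyll-binding protein of photosystem II, had 653.6, 647.7 and 639.1 CPM in atchz1ab and 893.3, 882.3 and 906 CPM in hta9hta11 (log2 fold change -0.47 ± 0.0189, edgeR adjusted p = 1.79e-67). It has near-identical copies, and the library sums of the list were alike, 99660 to 100100 CPM in atchz1ab and 99150 to 100700 CPM in hta9hta11. RBCS2B (AT5G38420), a small subunit of Rubisco and likewise one of several copies, was higher by 0.17 ± 0.0121.

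Of 9 tested members of the seed maturation list, 4 were lower in atchz1ab, 0 higher and 5 not called, against 6.13% of all genes tested lower. DESeq2 made 1 of these calls. The median was -0.41, and it was -0.71 without atchz1ab replicate 1 and -0.63 without hta9hta11 replicate 1. With all 18 libraries in 1 fit, where 14 members were tested, it was weaker at -0.37. Over all 18 members the library sums ran from 42.33 to 43.08 CPM in atchz1ab and from 72.84 to 76.59 CPM in hta9hta11. CRA1 (AT5G44120), a storage globulin, had 19.7, 21.17 and 20.85 CPM in atchz1ab and 43.73, 42.12 and 38.54 CPM in hta9hta11 (log2 fold change -1.01 ± 0.0882, edgeR adjusted p = 1.49e-22). PAP85 (AT3G22640), a vicilin-like storage protein gene, is not a member of this list and is named as among the 10 largest falls of all genes. It had 0.7791, 0.3342 and 0.4607 CPM in atchz1ab and 5.17, 4.414 and 4.994 CPM in hta9hta11 (log2 fold change -3.18 ± 0.362, edgeR adjusted p = 2.54e-14). OLEO2 (AT5G40420), of oil bodies, lost its call in 9 of the 15 alternatives, PER1 (AT1G48130) without atchz1ab replicate 2 (log2 fold change -0.62, edgeR adjusted p = 0.114) or 3 (-0.76, 0.0502) and M17 (AT2G41260) without atchz1ab replicate 3 (-0.64, 0.11). Under DESeq2 the adjusted p was 0.0531 for PER1 and 0.0524 for M17. The seed regulator LEC1 and the storage genes CRU2, SESA3 and SESA4 were at 0 in all 6 libraries, and CRU3 (AT4G28520) was not called (edgeR adjusted p = 0.128). In Col-0, CRA1 stood at 11.2 CPM and PAP85 at 0.458 CPM.

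Markers of root and flower were low in both lines. Of 16 root and root hair markers 5 could be tested and 1 was lower, the actin factor ADF8 (AT4G00680), at 1.165 ± 0.345 CPM in atchz1ab and 4.566 ± 0.56 CPM in hta9hta11 (log2 fold change -1.96 ± 0.309, edgeR adjusted p = 4.98e-08). The sums of the root list overlapped, 58.59 to 62.67 CPM in atchz1ab and 61.18 to 67.96 CPM in hta9hta11, and the root hair genes EXPA7 and EXPA18 were at 0. Of 9 floral genes 5 could be tested and SEP3 alone was called, with list sums of 23.38 to 24.49 CPM in atchz1ab and 24.43 to 31.02 CPM in hta9hta11. Of 13 tested senescence genes 4 were lower and 0 higher, with list sums of 1278 to 1300 CPM in atchz1ab and 1437 to 1451 CPM in hta9hta11. With a coefficient of variation of 0.1, 1 lower call was left in the senescence list. The share called was 30.8% in the senescence list and 20% in both the root and the floral list, against 11.8% over all genes. DIN10 (AT5G20250), a dark-induced raffinose synthase gene, averaged 360.5 ± 1.17 CPM in atchz1ab and 454.9 ± 8.16 CPM in hta9hta11 (-0.34 ± 0.0244). Its call was lost with a coefficient of variation of 0.1 (edgeR adjusted p = 0.114). SAG12, which marks late senescence, was at 0. The part of seed, root, flower or ageing tissue in the other differences was not tested.

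The share called was 11.8% in the defence list, 21.4% in the heat list, 20% in the pigment list and 35.3% in the auxin list, against 11.8% over all genes. Among 17 genes of salicylic acid and immunity, GRX480 (AT1G28480), a glutaredoxin that links salicylic acid and jasmonate, was higher, at 1.875 ± 0.625 CPM in atchz1ab and 0.4095 ± 0.404 CPM in hta9hta11 (log2 fold change 2.14 ± 0.498, edgeR adjusted p = 0.000569). PR2 (AT3G57260), a glucanase of defence, was lower, at 2.597 ± 0.74 CPM in atchz1ab and 4.667 ± 0.885 CPM in hta9hta11 (edgeR adjusted p = 0.0146), and lost its call without atchz1ab replicate 1 (0.144) or hta9hta11 replicate 2 (0.128). PR2 was not called under DESeq2 either (DESeq2 adjusted p = 0.0889). Of 14 heat shock genes 1 was higher and 2 lower, with HSP101 (AT1G74310) and HSFA2 (AT2G26150) not called. Of 15 flavonoid genes 2 were higher and 1 lower. MYB75 (AT1G56650), the activator of anthocyanin synthesis, averaged 2.245 ± 1.14 CPM in atchz1ab and 0.822 ± 0.41 CPM in hta9hta11 (log2 fold change 1.42 ± 0.406), a call lost without atchz1ab replicate 1 (0.92, edgeR adjusted p = 0.279), hta9hta11 replicate 2 (1.28, 0.0513) or hta9hta11 replicate 3 (1.18, 0.0868). DESeq2 did not call MYB75 (DESeq2 adjusted p = 0.0771). Of 17 genes of auxin and elongation growth 3 were higher and 3 lower, with IAA17 (AT1G04250), a repressor of auxin response, at 19.47 ± 1.92 CPM in atchz1ab and 11.46 ± 0.77 CPM in hta9hta11 (log2 fold change 0.76 ± 0.121, edgeR adjusted p = 7.13e-08).

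The levels in the combined line and in Col-0, scaled over all 18 libraries, differed between the groups of genes. SMR7, TSO2, GMI1 and PARP2 stood at 4.68, 114, 31.1 and 21.4 CPM in the line atchz1ab hta9hta11 and at 0.361, 60.5, 9.27 and 8.4 CPM in Col-0, so that both lines with the atchz1ab mutations were above both lines without them. LOX2, AOC2 and TGG2 stood at 395, 188 and 580 CPM in the combined line, near the 385, 188 and 551 CPM of hta9hta11 on this scale, and at 697, 288 and 870 CPM in Col-0. IMA3 and BHLH100 stood at 62.4 and 4.82 CPM in the combined line and at 95.8 and 14.1 CPM in Col-0, against 143 and 18 CPM in atchz1ab and 63.6 and 7 CPM in hta9hta11 on this scale. CRA1 and PAP85 stood at 52.7 and 5.04 CPM in the combined line. No test was made of these levels here.

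**Figure D5:**
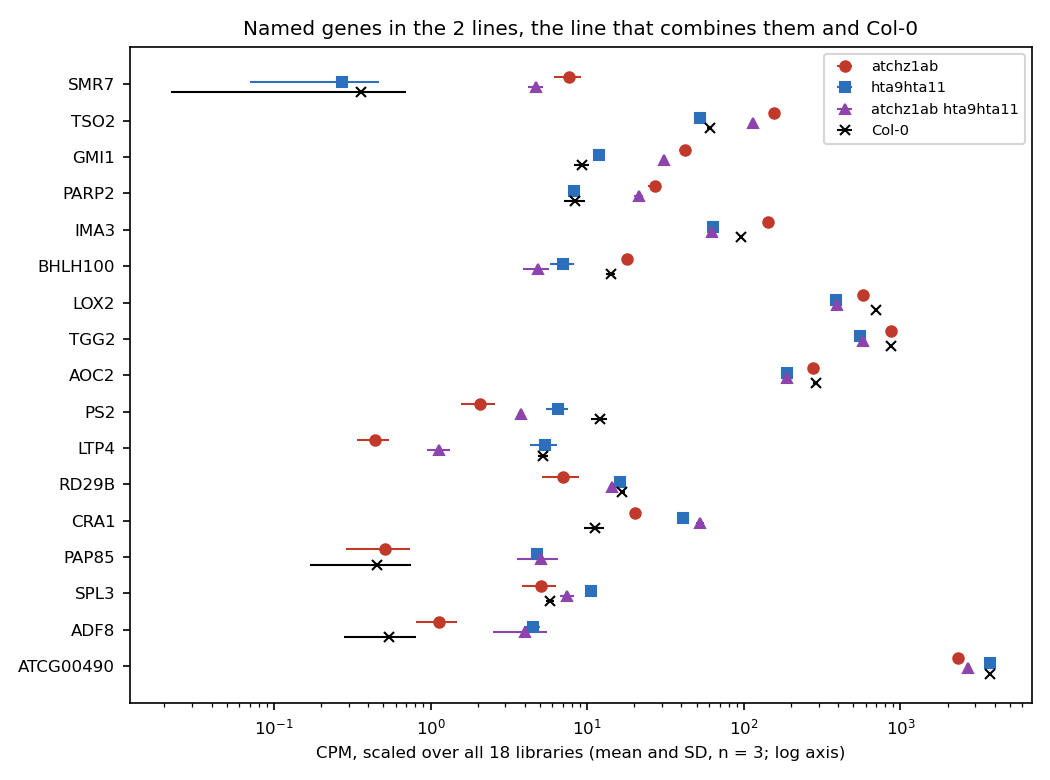
CPM of 17 named genes (log axis, scaled over all 18 libraries) as mean and SD of 3 libraries in atchz1ab, hta9hta11, the line atchz1ab hta9hta11 and Col-0. The DNA damage genes SMR7, TSO2, GMI1 and PARP2 are high in both lines with the atchz1ab mutations, while LOX2, AOC2 and TGG2 are low in both lines with the hta9hta11 mutations.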

How the data were processed

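Per the labels' protocols, RNA from seedlings was extracted with the RNAprep pure Plant Kit and made into libraries with the KAPA stranded mRNA-seq kit. The authors deposited a table of raw counts of reads per gene. The submitters' processing notes name cutadapt, HISAT2, SAMtools, featureCounts and the TAIR10 build, while the sources used here give neither their versions nor the strand setting of the counting.

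From these counts, the 6 libraries of atchz1ab and hta9hta11 were compared with edgeR 4.0.16 in R 4.3.3, using TMM scaling, filterByExpr, the quasi-likelihood test and Benjamini-Hochberg adjustment over 18173 genes, at a threshold of 0.05. The same fit was tested on simulated data. Levels in other lines use TMM scaling over all 18 libraries. Symbols came from RefSeq on TAIR10.1, where 18053 of the tested genes matched. Fold bounds use a floor of 3 counts over a line, and 95% ratio intervals and floors cover counting error only. Genes named by rule were the mutated and H2A.Z genes, the 10 largest changes each way and the 5 smallest p-values each way. The 10 largest changes were taken among called, non-overlapping genes of at least 1 CPM in the higher line. Up to 4 called members of each list, those with the largest differences, were added. Some of these list members are not described above, and other members described were chosen after their values were seen. The comparison and the lists were chosen with earlier results of these data known. Alternatives were other scaling, filters, DESeq2 1.42.0, all 18 libraries, a replicate block, an assumed coefficient of variation, a 2-fold minimum, and leaving out each library or the organelle and ribosomal RNA genes. One member of the DNA damage list is counted but not reported by name here.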

Additional observations from a re-analysis of the deposited data

How the results depend on the processing

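Of 2144 calls, 1030 higher and 1114 lower, DESeq2 made 1185 (592 higher, 593 lower), 1161 of them shared. An assumed coefficient of variation of 0.1 left 586 (248 higher, 338 lower), and a 2-fold minimum left 222. Scaling by library totals gave 2129 calls, 1161 higher and 968 lower, so that 54.5% of calls were higher, against 48.0% under TMM scaling. Leaving out each library gave 1661 to 1762 calls, with 815 to 850 higher and 843 to 914 lower. The other settings gave 2024 to 2178 calls. No called named gene changed direction in any alternative, while the uncalled AT1G44780 ranged from -0.04 to 0.12 on the log2 scale. Of 102 named genes DESeq2 lost the call of 22, the assumed variation of 31 and all 18 libraries of 6. The cause was not tested. The organelle difference of -0.503 percentage points was -0.4164 for the chloroplast alone and -0.0864 for the mitochondrion alone, and ran from -0.5125 to -0.4916 without each library. No pairing of samples by replicate number was seen: same-numbered libraries correlated by 0.00785, 0.00108 and -0.0192 in their deviations, and 2 of 6 libraries correlated best with their own number. Deviations of genes with few reads are mostly counting error, so that a weak pairing could go unseen. The fit with the replicate block made 2178 calls, and OLEO2 (log2 fold change -0.72, edgeR adjusted p = 0.0505) was the named call it lost. The seed maturation list held 2 lower calls without atchz1ab replicate 2 and 1 without replicate 3. The medians of the replication, machinery, heat, flowering and root lists changed sign in at least 1 alternative. Genes with few reads, such as IPS1 and PEPC1, rest on counts that depth limits.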
